A study of Rattus norvegicus with 2 samples.

Results

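The miRNAs mir-204, mir-148b and mir-490 were followed in rat heart (left ventricle, Wistar strain, 16 weeks of age), in 1 small RNA library from control animals and 1 from animals that had swum. They are 3 of the 191 miRNA entries with a ratio in the 2 count tables. They were chosen by name, as hairpins listed once and outside the muscle families whose depth-scaled count (CPM, the count scaled to the library's total over miRNA rows) was at least 1.7 times higher in swim than in control. They are not all the entries of this description: mir-29c at 1.78 times and mir-195 at 1.75 times, for instance, were not followed. The choice used these same counts, so the rise itself is a description of how they were picked and carries no test. The swimming animals trained for 90 minutes in each of 2 daily sessions for 8 weeks, and no training is named for the controls. The series concerns physiological hypertrophy, the growth of the heart under exercise. Sex, heart weight and the number of rats behind a library are not stated in the sources used here. With 1 library per condition, every difference below is one between these 2 libraries and not between groups of animals. Intervals cover counting error only and treat each read as independent. PCR copies without molecular identifiers are not independent molecules, so the intervals may be too narrow even for that error.

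A miRNA is cut from a hairpin precursor, and bases 2 to 8 of the mature strand, the seed, pair with target mRNAs and lower their output. Many mammalian miRNA hairpins sit in introns of protein-coding genes and can be transcribed together with the host. All 3 hairpins lie within the span of such a gene and on its strand in the RefSeq annotation of GRCr8. Mir204 lies in Trpm3, which encodes a cation channel. Mir148b lies in Copz1, which encodes a subunit of the COPI vesicle coat that carries cargo back from the Golgi. Mir490 lies in Chrm2, which encodes the muscarinic acetylcholine receptor through which the vagus nerve slows the heart. mRNA was not measured, so the levels of these hosts are unknown. The miRNA miR-204 is best known from the eye and from bone-forming cells, and in rat cardiomyocytes it has been studied as a repressor of autophagy, the recycling of cell contents. The miR-148/152 family has been studied in human cells as a repressor of DNA methyltransferases.

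The hairpins are shown first because each row of the tables bears a hairpin's name, so a count may hold reads of either arm. Sequences are from RefSeq (GRCr8), 5′ to 3′, and the capitals mark the annotated mature arms. The Mir204 hairpin is at chr1:229743461-229743570, the Mir148b hairpin at chr7:136299870-136299966 and the Mir490 hairpin at chr4:66014586-66014669, all on the plus strand. The deposited tables give no coordinates.
Mir204 hairpin: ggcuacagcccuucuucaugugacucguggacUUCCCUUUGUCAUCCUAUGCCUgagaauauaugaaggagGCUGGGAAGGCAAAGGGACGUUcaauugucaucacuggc
Mir148b hairpin: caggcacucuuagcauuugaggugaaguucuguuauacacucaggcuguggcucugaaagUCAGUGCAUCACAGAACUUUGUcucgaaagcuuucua
Mir490 hairpin: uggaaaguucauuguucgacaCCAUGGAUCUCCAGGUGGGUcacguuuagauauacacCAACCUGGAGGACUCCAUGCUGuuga

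The mature strands are shown with the seed in capitals, beside the rat miRNAs that share a seed with them, because near-identical strands limit what a row can tell apart.
miR-204-5p: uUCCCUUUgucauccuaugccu
miR-211-5p: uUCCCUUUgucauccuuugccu
miR-204-3p: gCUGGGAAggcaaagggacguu
miR-148b-3p: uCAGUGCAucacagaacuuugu
miR-148a-3p: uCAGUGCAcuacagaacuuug
miR-152-3p: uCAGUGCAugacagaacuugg
miR-490-5p: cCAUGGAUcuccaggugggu
miR-490-3p: cAACCUGGaggacuccaugcug
Positions are counted from 1 at the 5′ end, with the base of the followed miRNA first. Between miR-204-5p and miR-211-5p the only change was A17U, with 21 of 22 positions identical. Between miR-148b-3p and miR-148a-3p the changes were U9C and C10U, and between miR-148b-3p and miR-152-3p they were C10G and U20G, with 19 of 21 compared positions identical in each pair. The hairpins of miR-211, miR-148a and miR-152 were not analysed here. How reads of such close relatives were assigned is not stated in the sources used here, so the mir-204 and mir-148b rows may or may not hold reads from them. For either arm of mir-490 no other rat miRNA in the RefSeq table had the same seed.

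The followed miRNAs share no seed with each other. Their longest common run of bases, between miR-204-5p and miR-148b-3p, was 6 bases long. They come from 3 chromosomes, so they are not a genomic cluster. The G and C content of the hairpin was 50.0% for Mir204, 44.3% for Mir148b and 47.6% for Mir490, against a median of 50.0% and a range from 33.3% to 70.1% over the 153 entries with a matched hairpin.

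The entry mir-204 had 531 counts in control and 1876 in swim. As CPM this was 216 (95% Poisson interval 198 to 235) in the control library and 583 (557 to 610) in the swim library, a swim-to-control ratio of 2.70 (95% exact conditional binomial interval 2.45 to 2.98). It ranked 78th by count among the 191 entries in control and 61st in swim. It was therefore the lowest of the 3 in control but not in swim.

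The entry mir-148b, the most abundant of the 3 in both libraries, had 1206 counts in control and 3393 in swim. Its level was 490 CPM (463 to 519) in the control and 1054 CPM (1019 to 1090) in the swim library. The ratio of swim to control was 2.15 (2.01 to 2.30). It ranked 59th in control and 51st in swim.

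The entry mir-490 had 762 counts in control and 1737 in swim. Its level was 309.6 CPM (288 to 332) in the control and 539 CPM (514 to 565) in the swim library. The ratio of swim to control was 1.74 (1.60 to 1.90). It ranked 72nd in control and 63rd in swim. These are minor miRNAs of the ventricle by count: together they made up 0.102% of the miRNA counts in control and 0.218% in swim.

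**Figure D1:**
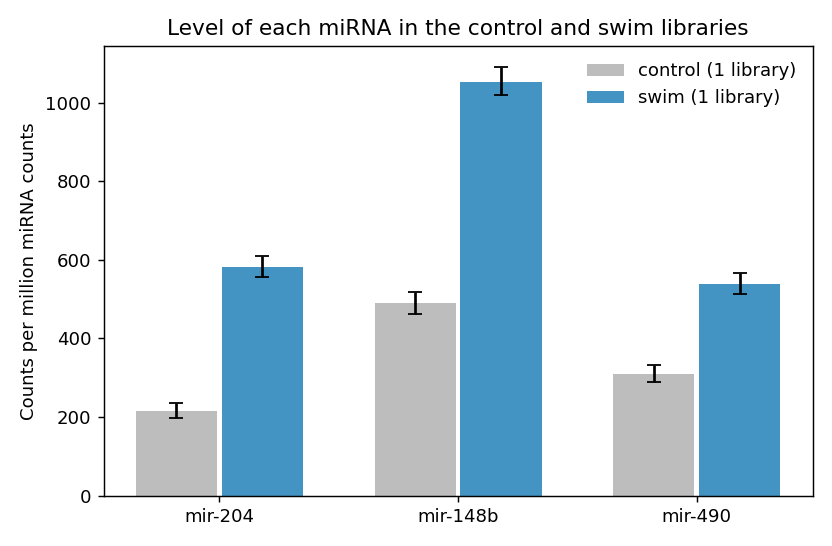
Level of mir-204, mir-148b and mir-490 in CPM (vertical axis) in the control library (grey) and the swim library (blue), with 95% Poisson intervals as error bars. Each miRNA is higher in swim, and mir-204, the lowest in control at 216 CPM, stands at 583 CPM in swim beside mir-490 at 539 CPM.

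The 3 ratios were unequal. These comparisons use ratios of counts within a library, which no scaling can alter. The count of mir-204 was 0.697 times that of mir-490 in control, and in swim it was 1.08 times as large. This ratio changed by a factor of 1.55 (95% interval 1.36 to 1.77, from Fisher's conditional distribution). The count of mir-148b was 2.27 times that of mir-204 in control and only 1.81 times that in swim, a factor of 0.796 (0.707 to 0.896). Against mir-490, mir-148b went from 1.58 to 1.95 times, a factor of 1.23 (1.11 to 1.38). None of these 3 intervals holds 1, so within counting error the order of the ratios was mir-204, then mir-148b, then mir-490.

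An entry was called higher or lower if its ratio differed by at least 2-fold and its interval left out 1. Of the 3, mir-204 and mir-148b were called higher and mir-490 was not. Among the 173 entries whose counts in both libraries summed to 20 or more, 6 were called higher (3.47%) and 57 lower (32.9%), with a median ratio of 0.666. At the ratio of 1.7 used for the choice, 11 entries passed (6.36%), and 47 lay above a ratio of 1 (27.2%). As the rule used this contrast, nothing is read from these shares. Among the tested entries mir-204 had the second-highest ratio, below only mir-671, which was listed at 1 count in control and 20 in swim. By the same order mir-148b held rank 6 and mir-490 rank 10.

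The value of each ratio rests on how the libraries are scaled. Under median-of-ratios factors the ratio was 4.08 for mir-204, 3.25 for mir-148b and 2.63 for mir-490. TMM factors gave 3.29, 2.62 and 2.12, and unscaled counts 3.53, 2.81 and 2.28, so mir-490 was called higher under all 3. With the row named Others, which names no miRNA, added to the totals, the ratios were 2.50, 1.99 and 1.61, and mir-148b was no longer called. All 3 stayed above 1 under each of the 8 other scalings tried and relative to the median of their own part of the table. The 3 were chosen at a ratio of at least 1.7, and the largest downward shift by a scaling was -0.11 in log2 ratio. Staying above 1 was therefore set by the choice and is no support for the rise. The split of calls over all entries moved too, to 18 higher and 26 lower with median-of-ratios factors, 11 and 33 with TMM and 12 and 30 without scaling. These settings shifted the tested entries' median log2 ratio up by 0.59, 0.28 and 0.39.

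**Figure D2:**
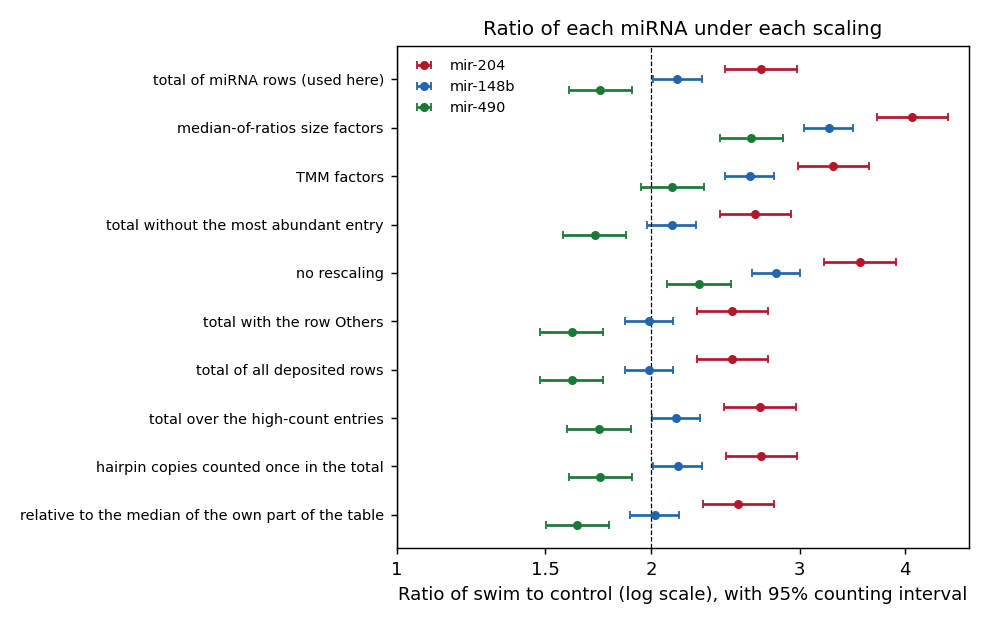
Ratio of swim to control (horizontal log axis, 95% counting intervals) for each miRNA under each scaling (rows), with the solid line at 1 and the dashed line at 2. All points lie above 1, mir-204 stays above 2 in every row and mir-490 lies above 2 only with unscaled counts, TMM factors or median-of-ratios factors.

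The place of these rows in the tables bears on the comparison. The first 81 rows of each table stand in falling order of the ratio and hold 75 tested entries whose higher count was at least 838. The other rows stand in falling order of the control count, hold 98 tested entries and have no count above 795 apart from let-7e, which is listed in both parts. The median ratio was 1.06 over the former and 0.458 over the latter. The followed miRNAs are rows 1, 6 and 10 of the first part. The rule behind the 2 parts is not stated in the sources used here. The control counts of mir-204 and mir-490 lie below 838. If the higher count set the part, both stand in the first part through their swim count alone. By that rule mir-148b would stand in the first part by either count. Relative to the median of the first part, a scaling chosen after seeing the data, the ratio was 2.54 for mir-204, 2.02 for mir-148b and 1.64 for mir-490.

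The entries with a similar number of control counts are given as context, and since the 3 were chosen for a high ratio, standing above such neighbours is set by the choice. The 17 other entries with a control count from 531 to 1206 had ratios from 0.236 to 1.78, with a median of 0.986, and 8 of them lay above 1. The ratios of mir-29c (1.78) and mir-195 (1.75) lay beside that of mir-490. Of the 5 entries nearest to mir-204 in control count, mir-345 (0.200), both mir-664 copies (0.441) and mir-320 (0.735) were below 1, and mir-532 had 1.61. The 5 nearest to mir-148b were mir-146b at 1.08, mir-322 at 0.986, mir-130a at 1.33, mir-450a at 0.870 and mir-101b at 1.17. The 5 nearest to mir-490 went far apart, with both mir-29b copies at 0.236, mir-301a at 0.424, mir-181d at 1.20 and mir-29c at 1.78.

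**Figure D3:**
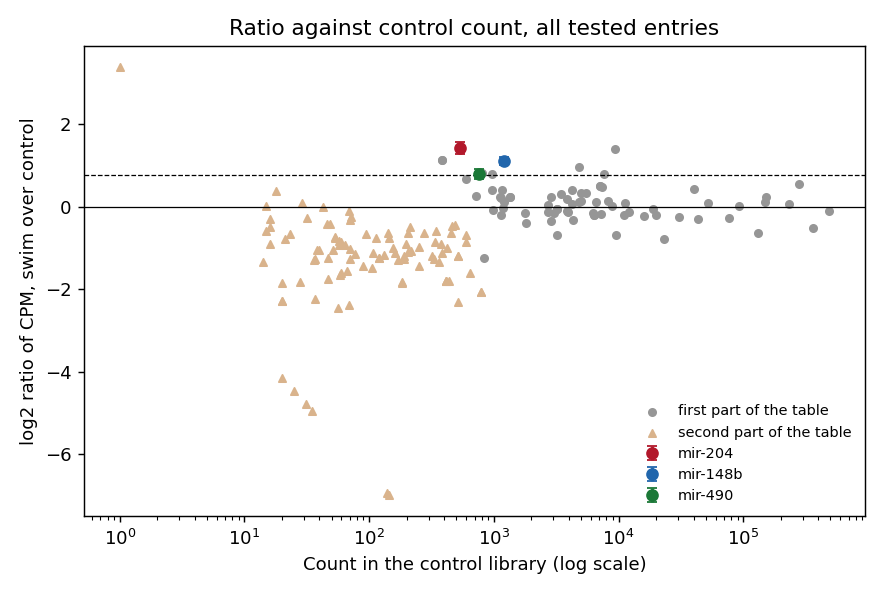
log2 ratio of CPM, swim over control (vertical axis), against the control count (horizontal log axis) for the 173 tested entries, with grey circles for the first part of the table, tan triangles for the second and coloured points with 95% intervals for mir-204, mir-148b and mir-490. The solid line marks a ratio of 1 and the dashed line 1.7. The 3 lie at or above the dashed line at control counts of 531 to 1206, where the entries of both parts meet.

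The entries most like each miRNA were taken as those nearest in log2 ratio over the 2 libraries, leaving out any entry whose counts summed to less than 100. Nearest to mir-204 was mir-208b, encoded in the slow myosin gene Myh7, at 3801 CPM in control and 10049 CPM in swim. Per count of mir-208b there were 0.0568 counts of mir-204 in control and 0.0580 in swim, which differ by a factor of 1.02 (0.924 to 1.13). As mir-208b was picked for its nearness in ratio, nothing is read from this interval holding 1. The next nearest to mir-204, both mir-19b copies at a ratio of 2.19, mir-148b and mir-133b at 1.95, were each at least 0.30 away on the log2 scale. Nearest to mir-148b were both mir-19b copies, 0.03 away in log2 ratio, then mir-133b, mir-29c and mir-195. The 2 copies have equal counts in each library and are read as 1 miRNA. Nearest to mir-490 were mir-195, 0.01 away, then mir-30e at a ratio of 1.73, mir-29c, mir-532 and mir-133b. With only 2 libraries any entries of equal ratio match fully, so this likeness is weak.

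At the chosen limit of 1.7, the entries just inside were mir-30e at 1.73, mir-490 at 1.74 and mir-195 at 1.75, and those just outside were mir-532 at 1.61, mir-30a at 1.47 and mir-30c-2 at 1.42. The interval of mir-490 reaches below 1.7, and that of mir-532 (1.46 to 1.78) reaches above it.

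The seed of miR-148b-3p also occurs in miR-130a-3p, shifted by 1 base so that it begins at the first position, a match sought after the sequences were seen. The shared bases are in capitals.
miR-130a-3p: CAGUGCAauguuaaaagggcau
Its hairpin entry mir-130a, with 1159 counts in control close in number to mir-148b, had 2021 in swim, a ratio of 1.33 (1.24 to 1.43). Per count of mir-130a there were 1.04 counts of mir-148b in control and 1.68 in swim, a factor of 1.61 (1.46 to 1.78). The entry mir-130b, with the same shifted match, was listed at 1 count in control and 12 in swim, too few to be tested. The entry mir-301a, a relative of mir-130a, went the other way, with 838 counts in control and 465 in swim, a ratio of 0.424 (0.378 to 0.476).

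The levels relative to marker miRNAs of the cell types of the ventricle were compared next. Since the 3 were chosen for their ratio, a value above 1 against a marker of even level is set by the choice, and the values only describe which markers lie nearest. Over the 15 marker entries listed for cardiomyocytes, endothelium, vascular smooth muscle, fibroblasts, leukocytes and erythroid cells, the change in the count of mir-204 relative to the marker ranged from 1.02-fold against mir-208b to 7.30-fold against mir-214. For mir-148b it ranged from 0.813-fold to 5.81-fold and for mir-490 from 0.659-fold to 4.71-fold, with the same markers at the ends. Among the cardiomyocyte markers the change for mir-204 was 2.27-fold against mir-499, 2.30-fold against mir-133a, 3.005-fold against mir-208a and 4.32-fold against mir-1. Against the vascular smooth muscle pair it was 2.05-fold for mir-145 and 2.88-fold for mir-143, and against the endothelial mir-126a 2.67-fold. Relative to mir-208b, mir-148b stood at 0.813 (0.758 to 0.873) and mir-490 at 0.659 (0.603 to 0.721) of the control value.

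The marker lists themselves gave these summed levels. All 5 cardiomyocyte entries were listed, and their sum went from 68900 CPM in control to 85687 CPM in swim (ratio 1.24), of which mir-133a alone made up 61888 CPM in control. Of the 5, mir-208b was called higher, mir-499 had a ratio of 1.19 and mir-133a one of 1.18, and mir-208a (0.899) and mir-1 (0.624) lay below 1 on the scale used here. The ratio of sums was 1.01 for the endothelial entry, 0.939 for the vascular smooth muscle pair, 0.917 for the 3 fibroblast entries (mir-199a at 1.25, mir-21 at 0.866 and mir-214, called lower, at 0.370), 0.991 for the leukocyte list (3 of 5 names listed) and 0.849 for the erythroid list (1 of 3 names listed). For the neuronal, endocrine and epithelial list, with 4 of 7 names listed, it was 0.329, and 5 of its 7 entries were called lower. No list's sum had a ratio as high as any of the 3 followed miRNAs, but these were chosen for a high ratio, so nothing is read from this. The single marker mir-208b, at 2.64, lay above mir-148b and mir-490. In bulk tissue, more cells of a type and more miRNA per cell cannot be told apart, and the part of cell composition in these ratios was not tested.

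Other miRNAs taken to lie in introns came from a list of 43 names. The names were not limited by the annotation, in which mir-674 of this list lies within no protein-coding gene. For mir-126a, mir-30e, mir-30c-1 and mir-326 of the list, the gene spanning the hairpin was not found on the hairpin's strand. Of the 35 tested entries of the list 1 was called higher, mir-208b (2.86%, against 3.47% of all tested entries), and 7 were called lower, among them mir-338 at 0.437 (20%, against 32.9%). All 7 stand among the rows of the second part, which held 56 of the 57 lower calls over all entries. The list was not matched to all entries for count or part, so its distance from them is not read as a trait of intronic miRNAs. The median log2 ratio of the list was -0.20, against -0.59 over all tested entries, and it was above 0 with unscaled counts, TMM factors or median-of-ratios factors and relative to the own part. Its 4 most abundant entries were mir-26a at a ratio of 1.08, mir-191a at 0.645, mir-126a at 1.01 and mir-378a at 1.06. Placed by annotation instead, 73 of the 136 tested entries with a matched hairpin lay within the span of a protein-coding gene on either strand, with a median log2 ratio of -0.63, against -0.51 for the 63 outside. Of the 73, 6 had a ratio of at least 1.7, the 3 followed miRNAs included, and of the 63 there were 5.

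Among miRNAs studied in cardiac autophagy or growth, the topic in which miR-204 has been studied in rat cardiomyocytes, 21 of the entries for 26 names were tested. Of these, 2 were called higher (9.52%, against 3.47% of all tested entries) and 3 lower (14.3%, against 32.9%), and the median log2 ratio was 0.09, which is below 0 with the row Others in the totals. The 3 lower ones stand among the rows of the second part, which held 56 of the 57 lower calls over all entries. The list was not matched to all entries for count or part, so nothing about autophagy or growth is read from these shares. The 2 higher ones are the copies of mir-19b, whose counts are equal in each library, so they are read as 1 miRNA. The most abundant were mir-30a, which represses the autophagy gene Beclin in human cells, at a ratio of 1.47, mir-22 at 0.703, mir-133a at 1.18 and mir-26a at 1.08.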

How the data were processed

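Small RNA was isolated from the left ventricle with a miRNeasy kit and sequenced after Illumina library preparation, per the labels' protocols. The authors deposited 1 table of whole-number counts per library. Bowtie 0.12.2 and the builds rn5 and rn4 are named, with no role, per the submitters' processing notes. Adapter trimming, the miRNA annotation and the rule for multiple matches are not stated in the sources used here.

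Each table held 203 rows. The row Others (5.41% of control and 12.5% of swim counts) and 9 rows marked with an asterisk, which repeat unmarked rows, were left out. The name let-7e, listed in 2 unmarked rows with swapped counts, entered totals only. Totals over miRNA rows were 2460845 in control and 3219939 in swim. Counts became CPM, and ratios of swim to control got Clopper-Pearson 95% intervals. Calls used a log2 ratio with a pseudocount of 0.5. The ratio rule was tested on simulated data with Poisson counting error only. That simulation held no spread between animals and no PCR copies, so it does not bear on either. No test between conditions was possible with 1 library each. Alternatives included median-of-ratios and TMM factors (edgeR 4.0.16), other totals, pseudocounts, filters and size rules. Entries named are the 3 miRNAs, their nearest entries in ratio and in control count, those at the limit of 1.7, seed relatives, markers and the 4 most abundant of each list; any other was named after its values were seen. The miRNAs and lists were chosen with earlier results of these data known. Mature sequences were found for 185 of 191 entries, in RefSeq (GRCr8). Scripts ran in Python 3.11.15.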

Additional observations from a re-analysis of the deposited data

Results flagged for a closer look

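The row Others, which names no miRNA and entered no comparison, held 12.5% of the swim counts (95% exact binomial interval 12.47 to 12.54%) against 5.41% (5.39 to 5.44%) in control. It drew attention because its share was above that of the control library in data outside the miRNA entries. With this row in the totals the log2 ratio was 1.32 for mir-204, 0.99 for mir-148b and 0.69 for mir-490, so that mir-148b alone of the 3 lost its call. What the row holds is not stated in the sources used here.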

How the results depend on the processing

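No paired analysis was possible because each condition has 1 library. The log2 ratio of all 3 miRNAs was above 0 under each of the 11 settings that bear on it, which was set by their choice at a ratio of at least 1.7. On the log2 scale, for mir-204, mir-148b and mir-490 in turn, it was 2.03, 1.698 and 1.39 with median-of-ratios size factors, 1.72, 1.39 and 1.08 with TMM factors, and 1.82, 1.49 and 1.19 with unscaled counts. For mir-148b it was 0.99 with the row Others or all deposited rows in the total. Entries called higher numbered 18, 11 and 12 with median-of-ratios, TMM and no scaling in turn, 12 with a 1.5-fold rule, 1 with a 3-fold rule and 11 relative to the own part. Entries called lower numbered 26, 33 and 30 under the same 3, 26 with a 3-fold rule, 36 where the filter was 100 summed counts and 11 relative to the own part. Entries at least 1.7 times higher numbered 32 under median-of-ratios factors, 21 with unscaled counts, 18 with no filter, and 7 with Others or all deposited rows in the total. The intronic list's median log2 ratio was 0.39, 0.079 and 0.18 under these 3 scalings, 0.041 relative to the own part, -0.32 with Others or all deposited rows, -0.31 with no filter and -0.13 with the filter at 100. That of the autophagy and growth list was 0.68, 0.37, 0.48 and 0.14 in the first 4 of these settings, -0.023 with Others or all deposited rows, 0.067 without the most abundant entry and 0.048 with a pseudocount of 5. A scaling shifts every entry of a library alike by construction, and the cause of the other changes was not tested. The counting error of the smallest count, mir-204 in control, is 4.34% of it (1 SD). The spread between animals is unknown with 1 library per condition.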
